A study of Mus musculus with 8 samples.

Results

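The response of *miR-21-/-* mammary tumors to ionizing radiation was examined by comparing the 2 arrays of irradiated tumors (KO-RT) with the 2 arrays of untreated tumors (KO), 4 of the 8 arrays of the series, over all 23152 genes measured. The arrays were chosen by their labelled genotype and treatment. All 8 arrays held total RNA of primary tumors of the mammary fat pad from female MMTV-PyMT mice, in which the mouse mammary tumor virus promoter drives the polyomavirus middle T antigen in mammary epithelium. The *miR-21-/-* mice lacked both alleles of the microRNA in every cell, tumor and host alike. The KO-RT mice received 8 Gy per the labels when their tumors reached 1000 mm3, and the tumors grew on to 2000 mm3. The KO mice received no radiation, and the remaining 4 arrays were of irradiated (WT-RT) and untreated (WT) *miR-21+/+* tumors, 2 of each. The study's methods give the same course of growth with another dose, and a legend on irradiated tumors of these genotypes gives an early collection instead, so neither the dose nor the time of collection is settled for these arrays. Mice were monitored for up to 18 weeks, and no source states that the 2 arrays of a group came from different mice, so the p-values measure only the spread between these samples, which may be technical. The comparison asks which transcripts differed after radiation in tumors without miR-21, and which differences both irradiated arrays shared.

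Ionizing radiation breaks DNA, and the break-sensing kinases activate p53, which raises transcription of genes for cell cycle arrest, repair and apoptosis. One of them, *Cdkn1a*, encodes the cyclin-dependent kinase inhibitor p21, which keeps the repressor complexes of the cell cycle bound to the promoters of genes for DNA replication and mitosis. Irradiated tumors also change in their cell makeup, with macrophages clearing dying cells, and in a whole-tumor sample fewer cells of a type and less RNA per cell cannot be told apart. MicroRNA-21 lowers translation and stability of messages that pair with its seed, bases 2 to 8 of the mature strand, and it is known as a repressor of proapoptotic and antiproliferative genes. The RefSeq (GRCm38.p6) sequence of the strand that the null mice lack is printed with its seed in capitals, and it lies on the minus strand at chr11:86584120-86584141.
mmu-miR-21a-5p: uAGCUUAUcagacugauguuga

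Gene levels are log2 signals, the mean over the probe sets (groups of array probes) listed with that gene symbol alone, so a difference of 1 is a 2-fold difference. The 1 probe set listed for *Mir21* also lies in *Vmp1*, was at the 7th percentile of all probe sets and read 1.69 and 1.97 in KO-RT, 2.02 and 2.0 in KO, 2.75 and 3.08 in WT-RT and 2.50 and 2.34 in WT tumors, so all 4 null arrays lay below all 4 wild-type arrays. Array medians were close, between 5.08 and 5.16. KO-RT replicate 1 stood apart: its correlations with the other 7 arrays across genes were 0.898 to 0.915, against 0.955 to 0.987 among the other 7. The 2 KO-RT arrays differed by at least 1 log2 unit in 2626 genes, against 145 between the 2 KO arrays, 391 between the WT-RT and 362 between the WT arrays. The mean level of 19 adipocyte markers was 9.85 in KO-RT replicate 1 and 4.98 in replicate 2, against 4.75 and 4.79 in KO tumors. *Krt8*, a keratin of luminal cells, read 8.51 and 9.35 in KO-RT and 9.75 and 9.74 in KO tumors. It was 1 of 22 luminal markers, whose median difference from KO was -1.2 in KO-RT replicate 1 and -0.10 in replicate 2. The share of tumor epithelium in each array was not measured.

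In the fit of all 8 arrays (limma), 703 genes, 3.04% of those tested, passed the thresholds of the study, a 2-fold or larger difference and a p under 0.05 before adjustment. Of these, 394 were higher (1.7%) and 309 lower (1.33%) in KO-RT tumors. Counts of gene list members past the thresholds are to be read beside these shares. Only genes that passed these thresholds are said to have risen or fallen, whereas higher and lower compare levels. After Benjamini-Hochberg adjustment 3 genes (0.013%) remained at p under 0.05, all lower, and 2547 genes (11.0%) had an unadjusted p under 0.05. The counts rested heavily on KO-RT replicate 1: without it 249 genes were higher and 167 lower, and without KO-RT replicate 2 there were 1559 and 1129, the single remaining array being assumed to vary like the other groups. Leaving out KO replicate 1 gave 241 higher and 269 lower genes, and leaving out KO replicate 2 gave 226 and 233.

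A difference was called shared when both KO-RT arrays lay at least 1 log2 unit outside both KO arrays on the same side. By this description 91 genes (0.393%) were shared higher and 76 (0.328%) shared lower. Only KO-RT replicate 1 was that far above the KO arrays in 1250 genes (5.4%) and below them in 879 (3.8%), whereas only replicate 2 was in 106 (0.458%) and 44 (0.19%), and the 2 arrays were that far out on opposite sides in 7 (0.0302%). Of the 394 genes past the thresholds on the higher side, 89 were shared, 273 were that far out in replicate 1 only and 24 in replicate 2 only. Of the 309 on the lower side, 74 were shared, 215 were in replicate 1 only and 13 in replicate 2 only. The 2 irradiated arrays were within 1 log2 unit of each other in 57 of the 91 shared higher genes, and replicate 1 exceeded replicate 2 by at least that much in 30. In the shared lower genes they were within 1 log2 unit in 63 of 76, and replicate 1 was the lower array in the other 13.

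**Figure D1:**
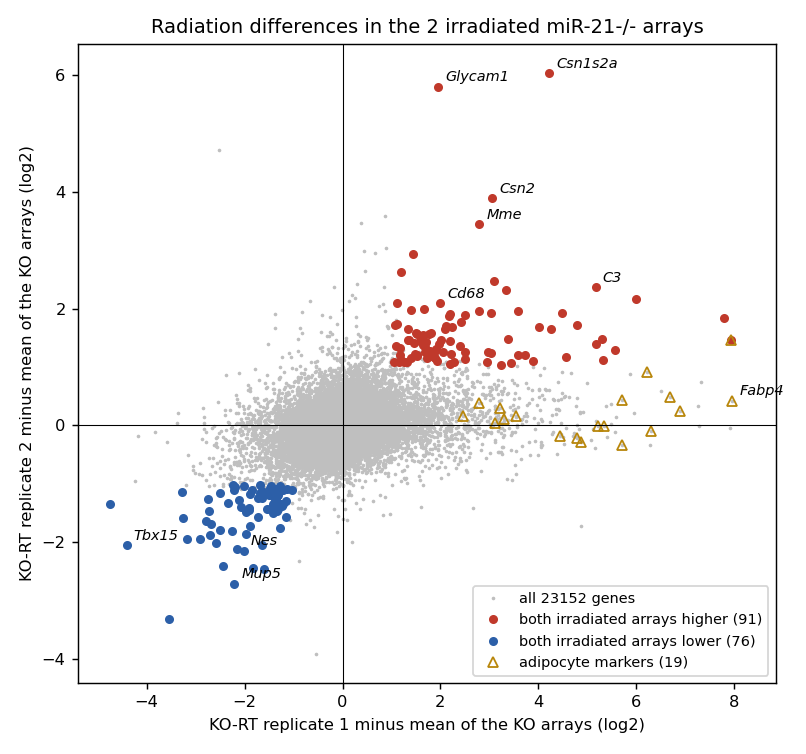
Log2 difference of KO-RT replicate 1 (horizontal axis) and of KO-RT replicate 2 (vertical axis) from the mean of the 2 KO arrays, with 1 point per gene for all 23152 genes. The 91 shared higher genes are red, the 76 shared lower genes blue, and the 19 adipocyte markers, drawn as triangles, run along the horizontal axis, with 18 of them at least 1 log2 unit higher in replicate 1 only.

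The genes that fell in both irradiated arrays were led by the 3 that passed the adjusted threshold. *Nes*, which encodes the intermediate filament nestin of progenitor cells, read 5.42 and 5.29 in KO-RT tumors, against 7.48 and 7.39 in KO tumors, a log2 fold change of -2.08 ± 0.17 (SE, n = 2 each; limma adjusted p = 0.0402). *Il12a*, the p35 subunit of the cytokine interleukin-12, read 4.52 and 4.56 in KO-RT, against 6.81 and 6.54 in KO tumors, a change of -2.14 ± 0.18 (adjusted p = 0.0402). *Mup5*, a major urinary protein, read 3.19 and 2.69, against 5.25 and 5.56, a change of -2.47 ± 0.22 (adjusted p = 0.0402). In each of these 3 genes both irradiated arrays lay close together and well below both untreated arrays. All 8 probe sets of *Nes* were lower in both irradiated arrays, as were 7 of 9 for *Il12a* and 3 of 5 for *Mup5*. Another 1 of the 5 for *Mup5* was higher in both irradiated arrays, by 0.27. *Mup5* belongs to a family of near-identical genes whose probes may not tell the members apart, and with the median of its probe sets its change was -0.95.

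Further shared decreases are given by the distance of the nearer irradiated array from the untreated ones. *Npy*, the appetite peptide neuropeptide Y, was at 5.79 and 6.36 in KO-RT, against 8.3 and 8.46 in KO tumors (-2.31 ± 0.24, adjusted p = 0.0541). *Egf*, the epidermal growth factor precursor, was at 4.28 and 4.74, against 6.58 and 6.51 (-2.04 ± 0.20, adjusted p = 0.0534). *Gabra4*, a GABA-A receptor subunit, was at 4.69 and 4.73, against 7.01 and 7.26 (-2.43 ± 0.24, adjusted p = 0.0534). Shared genes were chosen for groups that do not overlap, and in these 3 the irradiated arrays also lay close together. Chosen by the same rule were the potassium channel gene *Kcnma1* (-2.29), the glutamate receptor gene *Grik3* (-1.92) and the synaptic scaffold gene *Rims2* (-1.81). So were the neurokinin receptor gene *Tacr3* (-2.15), the prolactin-inducible *Pip* (-2.14) and the amino acid transporter gene *Slc6a15* (-2.56). The adjusted p of these last genes lay between 0.0541 and 0.239. *Ptgs2*, which encodes the inducible cyclooxygenase COX-2, fell to 4.74 and 5.68 in KO-RT tumors, against 7.53 and 7.74 in KO tumors (-2.43 ± 0.40, adjusted p = 0.146), and all 11 of its probe sets were lower in both irradiated arrays. *Tbx15*, a T-box transcription factor of mesenchyme, fell more in replicate 1 (4.7) than in replicate 2 (7.06), against 9.15 and 9.07 in KO tumors (-3.23 ± 0.63, adjusted p = 0.202), and *Sectm1b* likewise read 4.32 and 5.99, against 7.61 and 7.56.

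**Figure D2:**
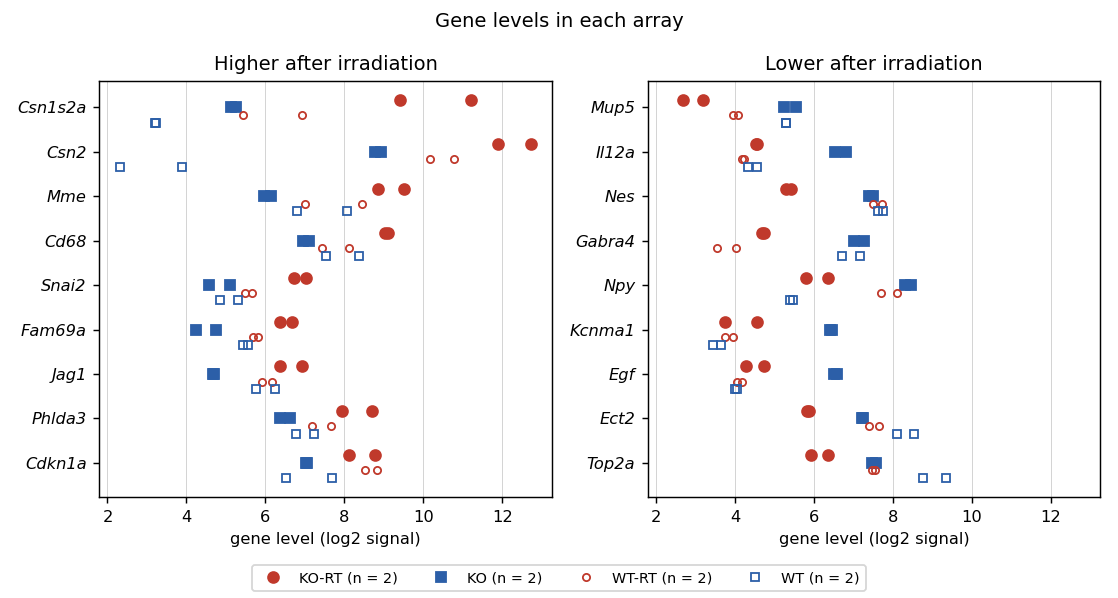
Log2 level of 9 genes that were higher and 9 that were lower in KO-RT than in KO tumors, with 1 marker per array (KO-RT filled red circles, KO filled blue squares, WT-RT open red circles, WT open blue squares, n = 2 each). All are shared genes, so by their choice the filled red and filled blue markers cannot overlap in any row. *Nes* stands at 5.42 and 5.29 in KO-RT and 7.48 and 7.39 in KO tumors.

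Genes of mitosis had lower levels in both irradiated arrays almost without exception. Of 57 measured genes of the G2 phase and mitosis, both KO-RT arrays lay below both KO arrays in 53 and above in 0, where 23.8% and 16.4% of all genes did so. The median log2 fold change was -0.73 (-0.82 in replicate 1 and -0.67 in replicate 2), against -0.04 over all genes. Past the thresholds 9 had fallen and 0 had risen, where 1.33% and 1.7% of all genes had. *Top2a*, the topoisomerase that untangles chromosomes before division, read 5.92 and 6.36 in KO-RT, against 7.48 and 7.57 in KO tumors (-1.39 ± 0.24, adjusted p = 0.173). *Ect2*, an exchange factor needed for cytokinesis, read 5.82 and 5.89, against 7.22 and 7.25 (-1.38 ± 0.20, adjusted p = 0.113). *Top2a* and *Ect2* were the 2 members with both arrays at least 1 log2 unit lower. The other 7 that fell were *Ccna2* (cyclin A2, -1.16), *Ncapg* (condensin, -1.17), *Pbk* (-1.15), the spindle protein gene *Aspm* (-1.13) and the motor protein genes *Cenpe* (-1.05), *Kif11* (-1.04) and *Kif14* (-1.02), with adjusted p between 0.122 and 0.288. Without KO-RT replicate 1, 8 members were past the thresholds, and without replicate 2 there were 17. *Cenpe* (-0.69), *Kif11* (-0.87), *Pbk* (-0.95) and *Ncapg* (-0.98) fell short of 2-fold without KO-RT replicate 1, *Kif14* (-0.97) without replicate 2, *Aspm* (-0.92) and *Pbk* (-0.99) without KO replicate 1, and *Cenpe* (-0.94), *Kif11* (-0.91) and *Kif14* (-0.87) without KO replicate 2.

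Genes of DNA replication had lower levels in both irradiated arrays for the most part. Of 44 measured, both irradiated arrays were below both untreated arrays in 36 and above in 1, where 23.8% and 16.4% of all genes did so. The median was -0.48. Past the thresholds 3 had fallen and 0 had risen, where 1.33% and 1.7% of all genes had. *Mcm6*, a subunit of the replicative helicase, read 5.63 and 5.84 in KO-RT, against 6.79 and 6.92 in KO tumors (-1.12 ± 0.21, adjusted p = 0.188), *Cdc7*, the kinase that starts replication origins, changed by -1.04 ± 0.25 (adjusted p = 0.269), and *Pole2*, a polymerase epsilon subunit, by -1.1 ± 0.42 (adjusted p = 0.417). Without KO-RT replicate 1, 1 of the 44 passed the thresholds, *Cdc7* (-0.89) and *Pole2* (-0.57) no longer doing so, nor did *Pole2* without KO replicate 1 (-0.95) or 2 (-1.26). None of 46 DNA repair genes passed the thresholds in the fit of all arrays, with a median of -0.25 (-0.38 in replicate 1 and -0.04 in replicate 2), 2 of them did without replicate 2, and the smallest p was that of *Fanca* (-0.67 ± 0.17, adjusted p = 0.276). The genes of Myc and ribosome production had a median of -0.22, with 0 of 30 past the thresholds, and *Myc* itself read 6.88 and 7.2 in KO-RT and 7.64 and 7.44 in KO tumors.

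The promoters of mitotic genes often hold the element TTTGAA, read by the repressor complexes of the cell cycle, together with CCAAT boxes. Over the window from 250 bases before to 50 bases after the transcription start (RefSeq, GRCm38.p6, both strands), TTTGAA was found in 71.1% of the 45 G2 and mitosis genes with a promoter sequence, against 20.2% of all 27025 genes with one. CCAAT was found in 68.9%, against 41.1%, and both in 57.8%, against 7.97%. Of the 36 replication genes with a sequence, 16.7% held TTTGAA, as did 17.4% of 23 p53 target genes and 31.6% of 19 macrophage genes. CCAAT was in 55.6% of the replication, 52.2% of the p53 target and 42.1% of the macrophage genes. Both elements were in 8.33%, 13.0% and 21.1% of them, in the same order. These are matches of letters and not measured binding. The promoters of the 2 members with shared decreases are printed with the TTTGAA and CCAAT elements and their reverse complements in capitals. *Ect2* is from the minus strand of chr3:27153829-27154128, and *Top2a* from the minus strand of chr11:99024140-99024439. The *Ect2* window was 1 of 2 listed for it, ranked first by its number of these matches. *Ect2* held 2 TTTGAA and 3 CCAAT matches, and *Top2a* held 2 and 6.
Ect2: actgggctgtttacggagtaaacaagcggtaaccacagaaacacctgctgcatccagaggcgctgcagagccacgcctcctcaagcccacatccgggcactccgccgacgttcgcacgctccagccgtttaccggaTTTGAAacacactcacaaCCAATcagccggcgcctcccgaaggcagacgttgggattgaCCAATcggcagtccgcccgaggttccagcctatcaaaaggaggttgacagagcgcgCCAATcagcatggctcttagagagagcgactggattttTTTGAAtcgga
Top2a: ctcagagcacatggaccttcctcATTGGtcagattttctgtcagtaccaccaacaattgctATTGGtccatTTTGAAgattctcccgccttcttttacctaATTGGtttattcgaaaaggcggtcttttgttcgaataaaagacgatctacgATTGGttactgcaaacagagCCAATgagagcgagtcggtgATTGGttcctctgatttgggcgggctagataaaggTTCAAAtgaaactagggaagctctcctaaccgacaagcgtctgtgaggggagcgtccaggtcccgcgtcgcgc

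Target genes of p53 had higher levels in both irradiated arrays for the most part. Of 31 measured, both KO-RT arrays lay above both KO arrays in 24 and below in 0, where 16.4% and 23.8% of all genes did so. Past the thresholds 6 had risen and 0 had fallen, where 1.7% and 1.33% of all genes had. The median log2 fold change was 0.57, with medians of 0.34 in replicate 1 and 0.43 in replicate 2. *Cdkn1a*, which encodes p21, read 8.11 and 8.77 in KO-RT, against 7.07 and 7.04 in KO tumors (1.39 ± 0.38, adjusted p = 0.313). *Phlda3*, an inhibitor of AKT, read 8.71 and 7.94, against 6.63 and 6.37 (1.82 ± 0.31, adjusted p = 0.163). *Eda2r*, a receptor of the tumor necrosis factor family, read 6.34 and 6.0, against 4.46 and 4.88 (1.5 ± 0.35, adjusted p = 0.247). Both irradiated arrays were more than 1 log2 unit above both untreated arrays in these 3 genes and in *Ccng1*, the cyclin G1 gene (1.37 ± 0.30, adjusted p = 0.239), and *Ak1*, an adenylate kinase (1.25 ± 0.18, adjusted p = 0.108). The stress sensor gene *Sesn2* rose by 1.16 ± 0.22 (adjusted p = 0.188), and its difference was 0.94 without KO replicate 2. *Mdm2*, the ubiquitin ligase that limits p53, read 7.52 and 8.05, against 7.12 and 7.22 (0.61 ± 0.21), under the 2-fold threshold with both irradiated arrays higher. *Bbc3* (0.18) and *Pmaip1* (0.35), the proapoptotic targets PUMA and NOXA, and *Gdf15* (-0.23) did not pass. Without KO-RT replicate 1, 11 members were past the thresholds on the higher side and 0 on the lower, and without replicate 2 there were 7 and 1.

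A p53 half-site, the element of which a full p53 site holds a pair (both strands searched), was found in 34.8% of the 23 p53 target promoters with a sequence, against 9.55% of all genes with one. The share was 21.1% of 19 macrophage genes, 11.1% of 36 replication genes and 8.89% of 45 G2 and mitosis genes. The promoter of *Cdkn1a* is printed because the gene rose in both irradiated arrays, from the plus strand of chr17:29090729-29091028, the one of 2 listed windows with more matches. The 2 half-sites that matched are in capitals.
Cdkn1a: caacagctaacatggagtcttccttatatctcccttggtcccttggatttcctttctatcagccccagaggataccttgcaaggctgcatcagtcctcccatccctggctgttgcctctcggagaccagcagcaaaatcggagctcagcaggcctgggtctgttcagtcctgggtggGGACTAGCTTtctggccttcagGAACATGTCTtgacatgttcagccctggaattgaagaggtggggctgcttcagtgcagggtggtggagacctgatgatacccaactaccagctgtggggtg

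The study was concerned with apoptosis and death receptors, and the counts of these genes past the thresholds are given beside the 3.04% of all genes that passed. Of 29 core apoptosis genes 0 had risen and 0 had fallen, with a median of -0.11 that was -0.25 in replicate 1 and 0.04 in replicate 2. Without replicate 2, 1 of the 29 was lower. Of 25 genes of death receptor signaling, 1 rose and 1 fell. Counts this small do not set either list apart from all genes. *Fas*, the death receptor, read 6.39 and 6.83 in KO-RT, against 5.97 and 6.14 in KO tumors (0.56 ± 0.22, adjusted p = 0.438). Both irradiated arrays were above both untreated arrays, and the difference of its 11 averaged probe sets was under the 2-fold threshold, while the median of the probe sets gave 1.06 and passed it. *Fasl*, its ligand, read 4.16 and 4.12, against 4.27 and 4.01 (-0.01 ± 0.18), so the groups overlapped. *Casp8*, the initiator caspase of this pathway, read 7.75 and 7.41, against 6.69 and 6.78 (0.85 ± 0.22, adjusted p = 0.289), with both irradiated arrays higher, and 1.02 without KO-RT replicate 2, which passed the thresholds. *Tnfrsf1b*, a receptor for tumor necrosis factor found mostly on immune cells, rose to 6.6 and 6.27, against 4.64 and 5.27 (1.48 ± 0.25, adjusted p = 0.157). The adaptor gene *Traf1* was at 4.59 and 6.19, against 6.56 and 6.39 (-1.08 ± 0.44), so its decrease was mostly that of replicate 1, and it passed in the fit without KO-RT replicate 2 alone among those that left out an array, with -0.28 without replicate 1. *Casp9*, the initiator caspase of the mitochondrial pathway, had a difference of -0.11, short of the thresholds. *Trp53inp1*, a p53-induced nuclear protein gene, read 8.51 and 9.89 in KO-RT, against 8.41 and 8.49 in KO tumors, a difference of 0.75 that did not pass. Without KO-RT replicate 1, the array level with the untreated ones, it was 1.44 and passed the thresholds.

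Milk protein genes led the increases that both arrays shared, by the distance of the nearer irradiated array from the untreated ones. *Csn1s2a*, which encodes an alpha-S2-type casein, read 9.4 and 11.22 in KO-RT, against 5.12 and 5.25 in KO tumors (5.13 ± 0.62, adjusted p = 0.0665). *Csn2*, the beta-casein gene, read 11.9 and 12.74, against 8.93 and 8.77 (3.47 ± 0.51, adjusted p = 0.113). *Glycam1*, a secreted mucin of milk, read 6.53 and 10.37, against 4.53 and 4.6 (3.88 ± 1.01, adjusted p = 0.285). In these 3 genes replicate 2, and not the adipocyte-rich replicate 1, was the higher of the irradiated arrays. Over the 14 measured milk genes 4 rose and 1 fell, *Muc1*, an apical mucin, at 7.01 and 7.11 in KO-RT, against 8.4 and 8.32 in KO tumors (-1.3 ± 0.23, adjusted p = 0.178). The list's median was -0.35 in replicate 1 and 1.19 in replicate 2. *Lalba*, the alpha-lactalbumin gene, read 9.39 and 10.77, against 10.68 and 10.64. Without KO-RT replicate 1, 8 of the 14 passed on the higher side and 1 on the lower, and without replicate 2 there were 3 and 5.

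Other genes ranked high among the shared increases by the same distance. *Mme*, the membrane peptidase neprilysin (CD10) of myoepithelial and stromal cells, read 8.85 and 9.5 in KO-RT, against 5.97 and 6.15 in KO tumors (3.12 ± 0.55, adjusted p = 0.173). *Jag1*, a Notch ligand, read 6.92 and 6.37, against 4.68 and 4.7 (1.95 ± 0.25, adjusted p = 0.0774), and 18 of its 22 probe sets were higher in both irradiated arrays. *Snai2*, the transcription factor Slug of basal and mesenchymal cells, read 7.02 and 6.73, against 5.1 and 4.56 (2.05 ± 0.25, adjusted p = 0.0665). In these genes the irradiated arrays were within 1 log2 unit of each other. *Fam69a* rose by 2.02 ± 0.22 (adjusted p = 0.0541), and *Krt19*, a luminal keratin, by 1.54 ± 0.37 (adjusted p = 0.256). *Krt5*, a keratin of basal cells, read 5.94 and 8.67 in KO-RT, against 5.26 and 4.91 in KO tumors, and *Krt15*, another, 3.92 and 7.01, against 3.69 and 3.39, so the far larger differences were in replicate 2. Without that array their changes were 0.86 and 0.39 and did not pass, nor did either gene without 1 of the KO arrays (2.05 to 2.39 for *Krt5* and 1.78 to 2.08 for *Krt15*) or 1 of the WT arrays, and *Krt15* did not without 1 of the WT-RT arrays. Over 14 basal and myoepithelial markers the median was 0.68 (0.39 and 0.85 in replicates 1 and 2), with 2 that rose and 0 that fell, and 5 that rose without KO-RT replicate 1.

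Macrophage genes had higher levels in both irradiated arrays for the most part. Of 24 measured markers 8 rose and 0 fell, where 1.7% and 1.33% of all genes did. Both irradiated arrays lay above both untreated arrays in 18, where 16.4% of all genes did so. The median was 0.91 (0.73 in replicate 1 and 0.85 in replicate 2). *Cd68*, a lysosomal protein of macrophages, read 9.02 and 9.12 in KO-RT, against 6.94 and 7.11 in KO tumors (2.04 ± 0.32, adjusted p = 0.122), with all 8 probe sets higher in both arrays. *C1qb*, a chain of complement C1q, read 8.34 and 8.45, against 7.05 and 6.93 (1.4 ± 0.31, adjusted p = 0.239). *Apoe*, the lipid carrier, read 8.72 and 8.5, against 7.42 and 7.4 (1.2 ± 0.17, adjusted p = 0.105), and 0.93 with the median of the probe sets. These 3 genes were nearly equal in the 2 irradiated arrays, although replicate 1 alone was rich in adipocyte markers. *Csf1r*, the receptor of the macrophage growth factor, rose by 1.08 ± 0.26 (adjusted p = 0.247), and the phagocyte gene *Gpnmb* by 1.08 ± 0.29 (adjusted p = 0.305), both more in replicate 1, without which their differences were 0.74 and 0.71 and did not pass. *Csf1r* (0.98) also fell short without KO replicate 1, and *Gpnmb* (0.98) without KO replicate 2. The mannose receptor gene *Mrc1* read 8.48 and 5.69, against 4.59 and 4.58, and *Cd163*, a scavenger receptor gene, 6.87 and 4.94, against 4.45 and 4.29, so most of their difference was that of replicate 1. Neither passed without KO-RT replicate 1 (1.10 for *Mrc1* and 0.58 for *Cd163*) or without 1 of the KO arrays (2.49 to 2.50 and 1.46 to 1.62). *Ccl6*, a chemokine of myeloid cells, read 6.64 and 6.02, against 4.05 and 4.23 (2.19 ± 0.41, adjusted p = 0.188). Without KO-RT replicate 1, 5 markers passed on the higher side, and without replicate 2 there were 10.

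Mast cell genes rose in part. Of 10 markers 3 rose and 0 fell, where 1.7% and 1.33% of all genes did. Of these 3, 2 were shared by both arrays, and the list's medians were 0.64 in replicate 1 and 0.0005 in replicate 2. *Cma1*, the mast cell chymase, read 4.29 and 3.72 in KO-RT, against 2.51 and 2.63 in KO tumors (1.44 ± 0.44, adjusted p = 0.35). *Cpa3*, the mast cell carboxypeptidase, read 5.55 and 4.52, against 3.18 and 3.15 (1.87 ± 0.62, adjusted p = 0.375), and *Mcpt4*, a mast cell protease, 4.55 and 3.45, against 2.59 and 2.34 (1.53 ± 0.51, adjusted p = 0.375). Replicate 1 was the higher array in all 3. Only 1 marker rose without KO-RT replicate 1, where *Cpa3* (1.35) and *Mcpt4* (0.98) did not pass, and without replicate 2 there were 3 that rose and 1 that fell. *Cma1* (1.37) and *Cpa3* (1.88) did not pass without KO replicate 1 either, nor *Cpa3* (1.86) and *Mcpt4* (1.4) without KO replicate 2.

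The other immune lists gave few calls, read beside the 3.04% of all genes that passed. Of 13 B and plasma cell markers 1 rose, *Igj*, the joining chain of secreted antibodies, at 3.76 and 4.02 in KO-RT, against 2.65 and 2.67 in KO tumors (1.22 ± 0.25, adjusted p = 0.206), a shared increase. Of 18 MHC genes 1 rose, *Nlrc5*, the transactivator of MHC class I, at 5.67 and 5.99, against 4.65 and 4.88 (1.06 ± 0.39, adjusted p = 0.408), which did not pass without KO-RT replicate 2 (0.91) or 1 of the KO arrays (0.95 to 1.18). Of 22 T and NK cell markers and 15 neutrophil markers 0 passed the thresholds, with medians of 0.09 and 0.06, and 1 neutrophil marker passed without KO-RT replicate 2. *Cd4*, the helper T cell receptor that macrophages can also carry, read 4.38 and 4.73 in KO-RT and 3.77 and 3.79 in KO tumors (0.77 ± 0.20), under the 2-fold threshold. Interferon-stimulated genes were lower by the median: -0.38 over 39 members (-0.57 in replicate 1 and -0.20 in replicate 2). Both irradiated arrays were below both untreated arrays in 21 and above in 3, where 23.8% and 16.4% of all genes were. Past the thresholds 1 of them rose and 0 fell, and *Rsad2*, the antiviral protein viperin, read 6.27 and 5.71 in KO-RT and 6.99 and 7.27 in KO tumors (-1.14 ± 0.57, adjusted p = 0.499). The 1 that rose was *Ifi204*, a DNA sensor of the interferon-inducible p200 family of macrophages, at 4.82 and 3.81, against 2.07 and 0.91 (2.82 ± 0.65, adjusted p = 0.247), and its relative *Mnda* rose by 2.78 ± 0.71 (adjusted p = 0.284). *Ifi204* had 2 probe sets and *Mnda* had 1, and as members of a family of similar sequence they may share signal. Without KO-RT replicate 2, 2 interferon genes had risen and 4 had fallen.

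Acute-phase genes rose in part, read beside the 1.7% of all genes that rose. Of 17 acute-phase and alarmin genes 5 rose and 0 fell, 4 of them shared by both arrays, but without KO-RT replicate 2 there were 5 that rose and 4 that fell, and 6 and 0 without replicate 1. The median was 0.06 (-0.40 and 0.74 in replicates 1 and 2). *Saa3*, the serum amyloid A of macrophages and fat, read 6.03 and 6.35 in KO-RT, against 4.53 and 4.19 in KO tumors (1.83 ± 0.44, adjusted p = 0.263). *Saa2*, of the liver type, read 9.82 and 10.81, against 8.65 and 8.79 (1.6 ± 0.39, adjusted p = 0.267). *C3*, the central complement component, read 11.83 and 9.02, against 6.68 and 6.63 (3.77 ± 0.98, adjusted p = 0.286). Replicate 2 was the higher array for the serum amyloid genes, and replicate 1 for *C3*, for *Hp*, the haptoglobin gene (9.46 and 7.55, against 6.17 and 6.0), and for *Orm1*, the orosomucoid gene (8.02 and 5.47, against 4.57 and 4.34), which adipose tissue also expresses. *Orm1* no longer passed without KO replicate 2 (2.17). *Saa2* has a near-identical copy in the genome whose RNA its probes may also measure, and the probe sets were few, 3 for *Saa3* and 2 for *Saa2*.

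The increases of replicate 1 alone were led by genes of fat cells. The 10 genes highest above the other 3 null arrays in replicate 1 alone included *Fabp4*, the fatty acid carrier of adipocytes (12.61 in replicate 1 and 5.08 in replicate 2 of KO-RT, against 4.61 and 4.71 in KO tumors), *Cidec* of the lipid droplet (11.04 and 4.4, against 3.98 and 4.31), *Cfd*, the adipokine adipsin (11.81 and 5.61, against 5.2 and 5.04) and *Car3*, a carbonic anhydrase of fat and muscle (12.16 and 4.61, against 3.81 and 4.1). With replicate 1 far above and replicate 2 near the untreated arrays, these 4 genes had log2 fold changes of 3.57 to 4.43 that did not pass the thresholds, with adjusted p of 0.474 to 0.507. Of the 19 adipocyte markers 18 were at least 1 log2 unit higher in replicate 1 only, and the median was 5.22 in replicate 1 and 0.16 in replicate 2. The exception was *Cd36*, the fatty acid transporter that macrophages also carry, at 11.54 and 5.07, against 3.6 and 3.64, which did not pass without KO-RT replicate 1 (1.46) or 1 of the KO arrays (4.67 to 4.71). In the fit of all arrays 2 of the 19 passed the thresholds, without KO-RT replicate 1 0 did, and without replicate 2 all 19 did.

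Stromal and vascular genes followed the same array, less steeply. Of 25 fibroblast and matrix markers 12 rose and 0 fell, with medians of 1.92 in replicate 1 and 0.46 in replicate 2, and without KO-RT replicate 1 the count was 1. *Dcn*, the matrix proteoglycan decorin, read 11.73 and 7.95 in KO-RT, against 6.43 and 6.68 in KO tumors (3.29 ± 1.18, adjusted p = 0.403), *Col3a1*, collagen III, 10.06 and 8.52, against 8.06 and 8.0, and *Fn1*, fibronectin, 10.25 and 8.53, against 7.41 and 7.54. Both irradiated arrays were above both untreated arrays in 20 of the 25, against 16.4% of all genes, but replicate 1 was the higher in each of these 3. *Dcn* (1.4) and *Col3a1* (0.49) did not pass without KO-RT replicate 1, nor without 1 of the KO arrays (3.16 to 3.42 and 1.23 to 1.29), and *Col3a1* did not without 1 of the WT-RT arrays. *Efemp1*, a matrix protein gene, *Retnla*, a resistin-like secreted protein gene, and *Angptl4*, an inhibitor of lipoprotein lipase, were shared but higher in replicate 1. *Efemp1* read 10.07 and 6.23 in KO-RT, against 4.14 and 4.01 in KO tumors, *Retnla* 10.11 and 4.15, against 2.26 and 2.37, and *Angptl4* 9.09 and 6.54, against 4.79 and 4.45. *Retnla* no longer passed without KO-RT replicate 1 (1.83) or without 1 of the KO arrays (4.76 to 4.87), and *Efemp1* did not without KO replicate 2 (4.01). Endothelial markers had a median of 1.38 in replicate 1 and -0.03 in replicate 2, with 2 of 20 that rose, 1 without KO-RT replicate 1 and 11 without replicate 2.

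Luminal epithelial genes were lower in replicate 1. Their median was -1.2 in replicate 1 and -0.10 in replicate 2 over 22 markers, 13 of which were at least 1 log2 unit below both KO arrays in replicate 1 only. *Cdh1*, E-cadherin, read 7.97 and 9.36 in KO-RT, against 9.74 and 9.64 in KO tumors, and *Cldn3*, a tight junction claudin, 7.52 and 8.98, against 9.39 and 9.19, and without replicate 1 their changes were -0.33 and -0.30. These 2 were the members that fell, and of the fits that left out an array they passed only in that without KO-RT replicate 2. Against them 2 rose, and without KO-RT replicate 1 there were 1 and 0. Among the 10 genes lowest in replicate 1 alone were *Dsp*, the desmosome protein desmoplakin (5.31 and 8.6, against 8.83 and 8.96), *Fam83b* (4.09 and 7.66, against 7.45 and 7.44) and *Scrg1* (3.35 and 7.34, against 7.52 and 7.54), in which replicate 2 was level with the untreated arrays. The part that the fat in replicate 1 had in the fibroblast, endothelial and luminal differences was not tested.

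**Figure D3:**
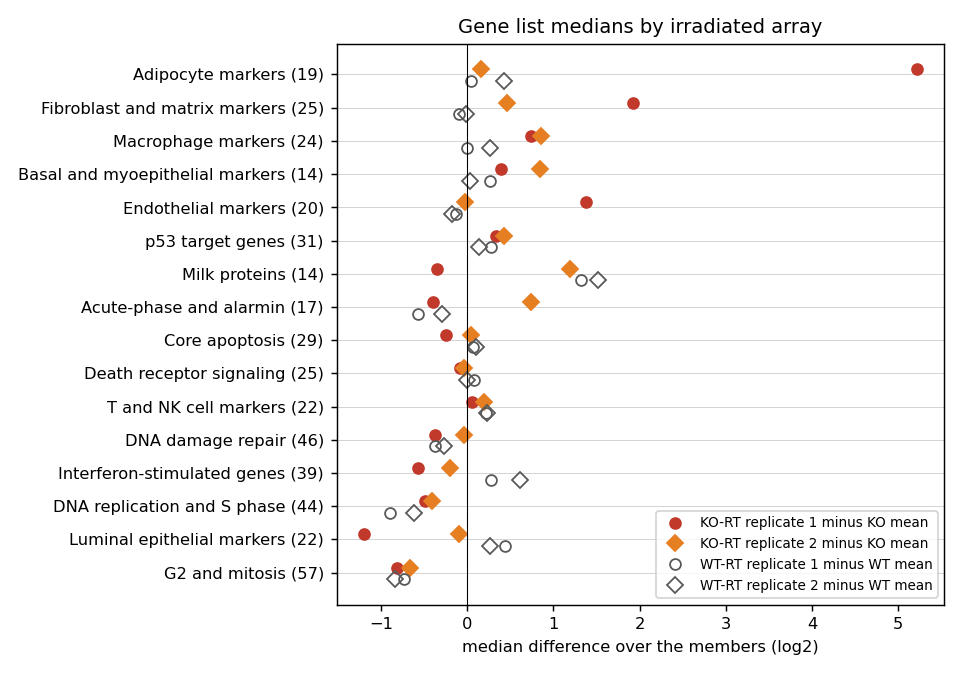
Median log2 difference over the members of 16 gene lists (number of measured members in parentheses), for each KO-RT array against the mean of the KO arrays (filled) and each WT-RT array against the mean of the WT arrays (open). The 2 filled markers lie together for G2 and mitosis (-0.82 and -0.67), macrophage and p53 genes, and far apart for adipocyte markers (5.22 and 0.16).

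The sterol synthesis genes *Dhcr7* (6.22 and 6.08 in KO-RT, against 7.26 and 7.15 in KO tumors) and *Sqle* (5.9 and 6.33, against 7.27 and 7.12) fell, with changes of -1.06 ± 0.16 (adjusted p = 0.118) and -1.08 ± 0.20 (adjusted p = 0.188), with both irradiated arrays below both untreated arrays. *Sqle* (-0.87) fell short of 2-fold without KO-RT replicate 1 and *Dhcr7* (-0.99) without replicate 2. They were the 2 of 27 fatty acid and cholesterol synthesis genes past the thresholds. This count and that of the hypoxia genes are read beside the 3.04% of all genes that passed. The 2 irradiated arrays ran opposite ways over the synthesis list. In the fit without KO-RT replicate 1, 6 genes fell and 0 rose, and without replicate 2, 8 rose and 2 fell. Of 33 hypoxia and glycolysis genes 2 fell and 0 rose: *Egln3*, an oxygen-sensing prolyl hydroxylase, at 7.67 and 7.17, against 8.87 and 9.01 (-1.52 ± 0.22, adjusted p = 0.113), and *Car9*, the tumor carbonic anhydrase IX, at 5.39 and 6.11, against 7.03 and 6.69 (-1.11 ± 0.26, adjusted p = 0.252). *Car9* did not pass without KO-RT replicate 1 (-0.75) or KO replicate 1 (-0.94). Without KO-RT replicate 2, 5 hypoxia genes rose and 2 fell.

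Of 31 NRF2 and glutathione genes 3 rose and 1 fell, where 1.7% and 1.33% of all genes did. The list's medians were 0.48 in KO-RT replicate 1 and -0.05 in replicate 2. Without replicate 1, 1 rose and 0 fell, and without replicate 2, 11 rose and 1 fell. *Hmox1*, the heme oxygenase of NRF2 targets and of macrophages, rose to 6.76 and 6.19, against 4.97 and 5.21 (1.38 ± 0.41, adjusted p = 0.341), and did not pass without KO replicate 1 (1.26). *Gpx3*, the secreted glutathione peroxidase that fat also makes, read 10.72 and 7.15 in KO-RT, against 6.26 and 6.24 in KO tumors, *Gsta3*, a glutathione transferase gene, 6.66 and 4.74, against 4.45 and 4.19, and *Nqo1*, a quinone reductase gene, 5.66 and 7.36, against 7.54 and 8.02. Their changes of 2.69 ± 0.94, 1.38 ± 0.52 and -1.27 ± 0.48 (adjusted p = 0.389, 0.417 and 0.418) were mostly those of replicate 1, and without it they were 0.90, 0.42 and -0.42. None of these 3 passed without 1 of the KO arrays (2.68 to 2.7, 1.25 to 1.51 and -1.51 to -1.03), and *Gsta3* and *Nqo1* did not without 1 of the wild-type arrays.

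Of 32 genes of the senescence-associated secretion 3 rose and 0 fell, with 1 and 0 without KO-RT replicate 1 and 4 and 3 without replicate 2. *Igfbp4*, an insulin-like growth factor binding protein, read 8.6 and 7.3 in KO-RT, against 6.07 and 6.33 in KO tumors (1.75 ± 0.41, adjusted p = 0.247), *Hgf*, the hepatocyte growth factor, 6.24 and 4.66, against 3.92 and 3.81 (1.58 ± 0.44, adjusted p = 0.313), and *Plau*, urokinase, 8.36 and 6.64, against 5.95 and 6.16 (1.45 ± 0.48, adjusted p = 0.375). Replicate 1 was the higher array in all 3, and without it *Hgf* (0.79) and *Plau* (0.59) did not pass, nor did *Plau* without 1 of the KO arrays (1.34 to 1.55). The counts of the senescence list and of the lists that follow are read beside the 1.7% of all genes that rose and the 1.33% that fell. Of 25 genes of the TGF-beta response 2 fell and 0 rose, *Cyr61*, a matricellular protein gene (8.08 and 8.71, against 9.53 and 9.55), and *Tgfb2*, a ligand of the family (6.3 and 7.3, against 7.79 and 7.89). Both were lower in replicate 1 and did not pass without it (-0.83 and -0.54), *Tgfb2* also not without 1 of the KO arrays (-1.09 to -0.99) or after quantile normalization, and without KO-RT replicate 2 the list had 3 that rose and 5 that fell. Of 28 reported miR-21 targets 1 rose, *Jag1*, and 1 fell, *Dusp8* (-1.1, and -0.66 without KO-RT replicate 1), with a median of 0.03. Of 7 Schwann cell and nerve markers 1 fell, *S100b*, a calcium-binding protein of glia and fat cells, at 4.33 and 3.92 in KO-RT, against 5.39 and 5.59 in KO tumors (-1.37 ± 0.29, adjusted p = 0.224). Of 16 skeletal muscle, 16 skin keratinocyte and 4 red blood cell markers 0 passed in the fit of all arrays. None of 25 genes of the unfolded protein response or 40 of oxidative phosphorylation passed, with medians of -0.32 and 0.21, and without KO-RT replicate 2 there were 1 and 8 on the higher side.

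The shared decreases were not spread evenly over the genome. Chromosome 3 held 18 of the 76 shared lower genes, 1.651% of its 1090 genes tested, and no other chromosome with shared lower genes exceeded 0.561%. They included *Tbx15* (chr3:99240348-99354260), *Nes* (chr3:87971093-87980451), *Il12a* (chr3:68690644-68698550), *Egf* (chr3:129677574-129755322), *Tacr3* (chr3:134829007-134934581), *Muc1* (chr3:89229056-89233381) and *Ect2* (chr3:27097222-27154253, all RefSeq GRCm38.p6). Among genes with a mean level above 6, the 416 of chromosome 3 had a median log2 fold change of -0.36, and the medians of the other 19 chromosomes lay between -0.18 and -0.05. On chromosome 3 it was -0.47 in KO-RT replicate 1 and -0.29 in replicate 2. Both irradiated arrays were below both untreated arrays in 58.17% of these genes, against 21.97% to 37.28% on the other chromosomes. The median was below 0 in 15 of 16 windows of 10 Mb along the chromosome, and above 0 in 1, which held 7 genes. Windows were not counted on the other chromosomes, whose medians were also below 0. Set against the mean of all 8 arrays, the chromosome 3 genes had a median deviation of 0.16 and 0.20 in the 2 KO arrays, and of -0.10 and -0.06 in KO-RT, -0.06 and -0.04 in WT-RT and -0.04 and -0.04 in WT tumors, so the untreated null arrays were the 2 that stood apart. When the chromosome 3 genes were centred in each array on these medians, a setting chosen after seeing the data, 7 of the 18 remained shared lower, among them *Nes*, *Il12a*, *Egf*, *Tbx15*, *Tacr3* and *Ect2*. The part of this shift in the named decreases on chromosome 3 was not tested further.

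**Figure D4:**
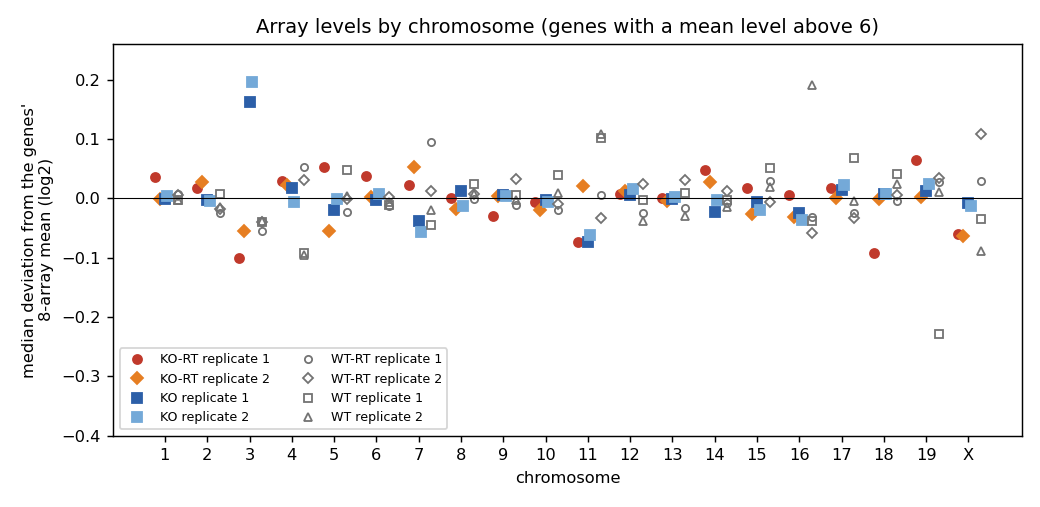
Median log2 deviation of the genes of each chromosome from their mean over the 8 arrays, for genes with a mean level above 6, after each array was set to a median of 0, with 1 marker per array (KO-RT red and orange, KO blue, WT-RT and WT open grey). The 2 KO arrays stand at 0.16 and 0.20 on chromosome 3, and the 6 other arrays there lie between -0.10 and -0.04.

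The shared genes, chosen by the distance between the null groups, were also placed against the 4 wild-type arrays, as a description. Both KO arrays were above all 6 other arrays in 37 of the 76 shared lower genes and below all 6 in 48 of the 91 shared higher genes. The choice of these genes already placed the KO arrays beyond the KO-RT arrays, so the counts were not set against all genes. In *Il12a* the wild-type arrays read 4.16 and 4.23 with and 4.34 and 4.57 without radiation, close to the KO-RT levels, as they did in *Egf* (4.05 and 4.18 in WT-RT, against 4.01 and 4.04 in WT tumors) and *Kcnma1* (3.96 and 3.75, against 3.43 and 3.65). The irradiated null arrays were below all 6 others in 36 of the 76, *Nes* among them (7.72 and 7.49 in WT-RT and 7.75 and 7.63 in WT tumors), and above all 6 in 47 of the 91.

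The same contrast in *miR-21+/+* tumors was set beside these differences, as a description. There 486 genes (2.1%) passed the thresholds, 268 higher (1.16%) and 218 lower (0.942%). The median of the G2 and mitosis genes was -0.73 in the null and -0.81 in the wild type, and for 0 of the 57 did the difference between the 2 radiation effects, the interaction term of the fit, pass the thresholds. *Gabra4* and *Tbx15* changed by -2.43 and -3.23 in the null tumors, and by -3.15 (adjusted p = 0.00669) and -3.3 (adjusted p = 0.13) in the wild type. *Cdkn1a* changed by 1.39 and 1.58, with an interaction of -0.19 ± 0.54. The median of the 31 p53 target genes was 0.57 in the null and 0.21 in the wild type, with 6 and 2 that rose. For the interaction 4 of the 31 passed the thresholds with a higher and 0 with a lower effect in the null tumors, where 1.66% and 2.25% of all genes did so. Of the 91 genes shared higher in the null tumors, 62 were also higher in the WT-RT mean than in the WT mean (median 0.40), and of the 76 shared lower genes 52 were lower (median -0.52). The wild-type median over all genes was 0.0017. Past the thresholds in the wild type, 15 of the 91 were higher and 2 lower, and 12 of the 76 were lower and 7 higher. Over all genes 905 (3.91%) passed the thresholds for the interaction, 385 (1.66%) with a higher and 520 (2.25%) with a lower effect in the null tumors.

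The radiation effects differed by the adjusted threshold in 1 gene (0.00432%), *Npy*, while 1858 genes (8.03%) had an unadjusted p under 0.05 for the difference. It fell to 5.79 and 6.36 in KO-RT, against 8.3 and 8.46 in KO tumors, and rose to 8.1 and 7.7 in WT-RT, against 5.47 and 5.4 in WT tumors, an interaction of -4.77 ± 0.34 (limma adjusted p = 0.0257). With a term for the replicate number in the fit (the replicate block), 0 genes passed the adjusted threshold for the difference. *Muc1* and *Ptgs2* also ran in opposite directions by their means, with interactions of -3.24 ± 0.33 (adjusted p = 0.0548) and -3.64 ± 0.57 (adjusted p = 0.155). *Csn2* rose in both genotypes, by 3.47 in the null and 7.38 in the wild type, where the untreated arrays read 2.32 and 3.89 (interaction -3.91 ± 0.72, adjusted p = 0.189). *Cd68* rose in the null and had 7.43 and 8.12 in WT-RT, against 7.54 and 8.36 in WT tumors (interaction 2.21 ± 0.45, adjusted p = 0.232), and 4 of the 24 macrophage markers passed the thresholds for a higher effect in the null tumors. *Jag1* (1.92 ± 0.36), *Tnfrsf1b* (2.24 ± 0.35) and *Saa3* (3.39 ± 0.62) had higher and *Kcnma1* (-2.61 ± 0.38), *Egf* (-2.13 ± 0.28) and *Grik3* (-2.12 ± 0.29) lower radiation effects in the null tumors, past the study's thresholds.

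Genes at the ends of the interaction ranking included *B4galnt2*, *Meis1* and *Lalba*. *B4galnt2*, a glycan-capping transferase, read 4.0 and 6.11 in KO-RT, against 4.06 and 3.33 in KO, and 3.69 and 3.48 in WT-RT, against 10.41 and 9.69 in WT tumors (interaction 7.82 ± 0.88, adjusted p = 0.0875). *Meis1*, a homeobox gene, rose to 6.9 and 8.34 in KO-RT, against 5.61 and 5.83 in KO, and fell to 4.27 and 4.02 in WT-RT, against 7.64 and 7.23 in WT tumors (interaction 5.19 ± 0.60, adjusted p = 0.0875). *Lalba* had 11.09 and 11.36 in WT-RT, against 6.33 and 5.96 in WT tumors, and overlapping levels in the null groups (interaction -5.66 ± 0.57, adjusted p = 0.0548). So *B4galnt2* and *Lalba* differed between the genotypes mainly through the wild-type response, and *Meis1* through both.

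**Figure D5:**
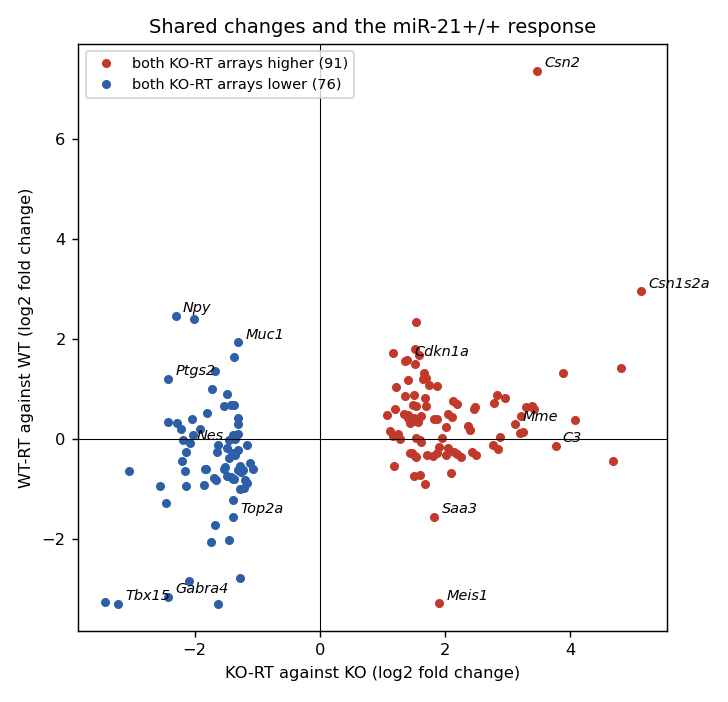
Log2 fold change of KO-RT against KO tumors (horizontal axis) and of WT-RT against WT tumors (vertical axis) for the 91 genes shared higher (red) and the 76 shared lower (blue) in both KO-RT arrays. Of the red points 62 lie above the horizontal line at 0 and 29 below it. Of the blue points 52 lie below it and 24 above, and *Npy* stands at -2.31 and 2.46.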

How the data were processed

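Total RNA of tumors was hybridised to 8 Affymetrix arrays. The deposited values are log2 signals per probe set, which the authors made by robust multi-array averaging (RMA), and the submitters' processing notes name Affymetrix Expression Console 1.4 and Transcriptome Analysis Console 3.1. Other columns, of the array's annotation, served for names. Of 269751 probe sets, 233753 carried 1 gene symbol, 5139 several and 30859 none, and only the first were used, averaged per symbol into 23152 genes (median 8 probe sets, 2319 genes with 1). The deposited tables held 0 value columns that could not be mapped to a sample.

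All 4 groups entered 1 linear model with moderated variances (limma 3.58.1, R 4.3.3, 4 residual and 3.54 prior degrees of freedom), with p-values adjusted by Benjamini-Hochberg over all genes. Calls used the study's thresholds, a fold change of at least 2 and an unadjusted p under 0.05. The model was run on simulated data with the spread of the KO, WT-RT and WT arrays only. The median absolute difference between replicates was 0.317 in KO-RT and 0.178 to 0.202 in these groups. So the run does not show how the model does with the KO-RT spread. Tables were made with pandas 2.3.3 and numpy 2.4.6 in Python 3.11.15, and figures with matplotlib 3.10.9. With 2 arrays a group, the number of arrays limits the precision, and an exact permutation test could not reach 0.05.

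Named genes were up to 15 per direction from those past the adjusted threshold, filled with shared genes at the study's thresholds by the distance of the nearer array, leaving out predicted, non-coding and olfactory names. To these came the members of each of 33 lists with the smallest p or past a threshold, any member of the p53, apoptosis and death receptor lists, 10 genes per direction for replicate 1 alone, 10 per direction for the interaction, and genes the study is about. The members and lists were chosen with earlier results of these data known. Alternatives covered the arrays fitted, moderation, normalization, probe-set summary, filters, weights, the sharing distance, a replicate block and each array left out. The chromosome 3 centring and the list counts without a KO-RT array were chosen after seeing the data.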

Additional observations from a re-analysis of the deposited data

Results flagged for a closer look

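The radiation effect on *Npy* differed between the genotypes by a test of the difference itself, with an interaction of -4.77 on the log2 scale (limma adjusted p = 0.0257). That result depended on the model, since with the replicate block 0 genes passed the adjusted threshold for the interaction. Both KO-RT arrays were below both KO arrays, and both WT-RT arrays above both WT arrays.

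The median radiation difference of the luminal epithelial markers was -0.72 in the null tumors and 0.38 in the wild type, with both irradiated arrays of a genotype on the same side. This difference between the genotypes was not tested, and the median was -1.2 in KO-RT replicate 1 and -0.10 in replicate 2.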

How the results depend on the processing

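The counts depended on the model and the arrays. Genes past the study's thresholds on the higher side, 394 in the fit of all arrays, were 231 in limma on the 4 null arrays, 76 in a linear model of them without moderation and 242 among genes above the median level. On the lower side the unmoderated model gave 87 instead of 309. The share of higher among all calls, 56%, was 48.6% with arrays centred on their medians, 47.8% on 4 arrays, 46.6% without moderation, 49.8% among brighter genes and 62.6% with array weights. Genes past the adjusted threshold, 3 in the fit of all arrays, were 15 with a variance trend and robust estimation, 13 after quantile normalization, 10 among genes with at least 3 probe sets, 1 among brighter genes, and 0 on 4 arrays, without moderation, with the median of the probe sets, with array weights and with the replicate block. For the interaction, the higher count of 385 was 225 among brighter genes and 588 with array weights, and the adjusted count of 1 was 5 with the variance trend, 6 with at least 3 probe sets, 11 with array weights and 0 with the replicate block. Shared genes numbered 403 higher and 492 lower at a distance of 0.5 log2 units, and 21 and 19 at 1.5.

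Leaving out 1 array at a time gave 226 to 1559 higher and 167 to 1129 lower genes, and 0 to 3602 past the adjusted threshold. For the interaction it gave 305 to 1664 higher, 419 to 1418 lower and 0 to 2523 adjusted. The extremes at the high end came without KO-RT replicate 2. The shared genes were chosen by the distance of both KO-RT arrays, so leaving out 1 of these arrays could not test the sharing. The medians lay between 0.34 and 0.57 for p53 targets, -0.82 and -0.67 for G2 and mitosis, -0.49 and -0.41 for replication, 0.73 and 0.92 for macrophage, 0.16 and 5.22 for adipocyte, 0.46 and 1.92 for fibroblast, -0.57 and -0.20 for interferon and -0.35 and 1.19 for milk genes. With the median of the probe sets the p53 median was 0.65 and the macrophage median 1.04, and with arrays centred the replication median was -0.52. Medians that changed sign ranged from -0.25 to 0.040 for core apoptosis, -0.12 to 0.17 for hypoxia, -0.047 to 0.48 for NRF2, -0.07 to 0.65 for oxidative phosphorylation and -0.026 to 1.38 for endothelial genes, where KO-RT replicate 1 was the array that decided, and from -0.46 to 0.12 for lipid synthesis, where replicate 2 did, and among brighter genes the mast cell median was -0.28. Genes that changed sign ranged from -3.36 to 0.21 for *Fam83b*, -1.27 to 0.11 for *Lalba*, -0.14 to 0.12 for *Fasl* and -0.23 to 0.0073 for *Casp9*, and *Pmaip1* was -0.0565 with the median of the probe sets. The causes were not tested.

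Same-numbered deviations of KO-RT and KO arrays correlated at 0.038. The median absolute difference between replicates was 0.317 in KO-RT and 0.178 in KO tumors. With spreads this unequal, the low correlation cannot show whether same-numbered samples were paired. The replicate block gave 399 higher and 329 lower genes.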
